A study of Mus musculus with 10 samples.

Results

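Kidneys labelled wild type (single mutant) were compared with kidneys labelled Control, 3 RNA-seq libraries of each, which together make up 6 of the 10 libraries of the series. Members were chosen by the genotype label alone. The series is about human APOL1, an apolipoprotein L gene with a pair of coding alleles, G1 and G2, that raise the risk of kidney disease in people, and it made mouse podocytes express them. The other 4 libraries came from kidneys with those alleles, G1-APOL1 (n = 2) and G2-APOL1 (n = 2), and are used here only to place a few values. The authors sequenced poly(A) RNA of whole kidney and deposited a read count for each mouse gene.

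The wild type (single mutant) kidneys carry that genotype label and a source label that says wildtype, and the Control kidneys carry Control in both. Neither label is defined further in the sources used here, and the study's paper was not used. The study is known to have placed human APOL1 behind a tetracycline-responsive element and to have switched it on with a transactivator driven in podocytes by the promoter of the nephrin gene. A mouse with only one of these transgenes would be a single transgenic animal, but the labels do not say which transgene, if any, the wild type (single mutant) or the Control kidneys carry. They give no strain, age, sex, doxycycline treatment or line for either group. Library titles begin with G1NF, GNA1 and NA_ for wild type (single mutant) libraries 1, 2 and 3, and with NA_, NA_ and NAP for Control libraries 1, 2 and 3. Human APOL1 was not analysed here, so the genotype was not checked against a transgene. The labels do not say that each library is a separate mouse, so every p-value here measures the spread between libraries, which may be technical.

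Neither group's label names a risk allele, and the comparison asks how far apart these 2 sets of kidneys lie. Podocytes are the epithelial cells that wrap the capillaries of the glomerulus and close the filter with the slit diaphragm, a cell junction built from nephrin and the Neph proteins. Immediate early genes are transcription factors and signalling inhibitors whose transcripts appear within minutes of a stimulus and decay soon after. In bulk kidney RNA, fewer cells of a type and less RNA per cell cannot be told apart, whichever gene group is concerned.

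The wild type (single mutant) libraries held 31349832, 31111647 and 30819691 counts, and the Control libraries held 30593617, 29539808 and 27596391. Mitochondrial genes took 6.32% to 8.92% of the counts in wild type (single mutant) libraries and 6.38% to 8.89% in Control libraries. The kidney label held in all 6 libraries. Slc34a1, the sodium-phosphate cotransporter of the proximal tubule, had 7620.5, 7570.1 and 6306 CPM in wild type (single mutant) kidneys, against 6299, 6857 and 6486 CPM in Control kidneys, in CPM (counts per 1000000 counts). The most alike pair of all 10 libraries, by chi-square over their counts, was wild type (single mutant) library 2 and Control library 3, at 26.2 per gene, so no library repeated another. Along the first principal component of the 6 libraries (44.7% of the variance) the scores were 31.3, 39.6 and -38.2 in wild type (single mutant) and -12.9, -48.3 and 28.5 in Control. Each group was thus spread over most of that axis. The negative scores were those of the NA_-titled libraries, namely wild type (single mutant) library 3 and Control libraries 1 and 2. Libraries with other titles had positive scores. The titles thus went with this component, and they are unevenly shared between the groups. The part of the titles in the differences between the groups was not tested. Xist, expressed from an inactive X chromosome, had 0.318, 0.304 and 0.408 CPM in wild type (single mutant) kidneys, against 0.322, 0.268 and 0.404 CPM in Control kidneys. The Y-linked helicase gene Ddx3y had 47.1, 47.9 and 44.3 CPM in wild type (single mutant) kidneys, against 43.3, 45.2 and 47.6 CPM in Control kidneys. The 6 libraries were alike in both genes, with a log2 fold change of 0.06 ± 0.32 SE for Xist and of 0.03 ± 0.08 SE for Ddx3y.

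**Figure D1:**
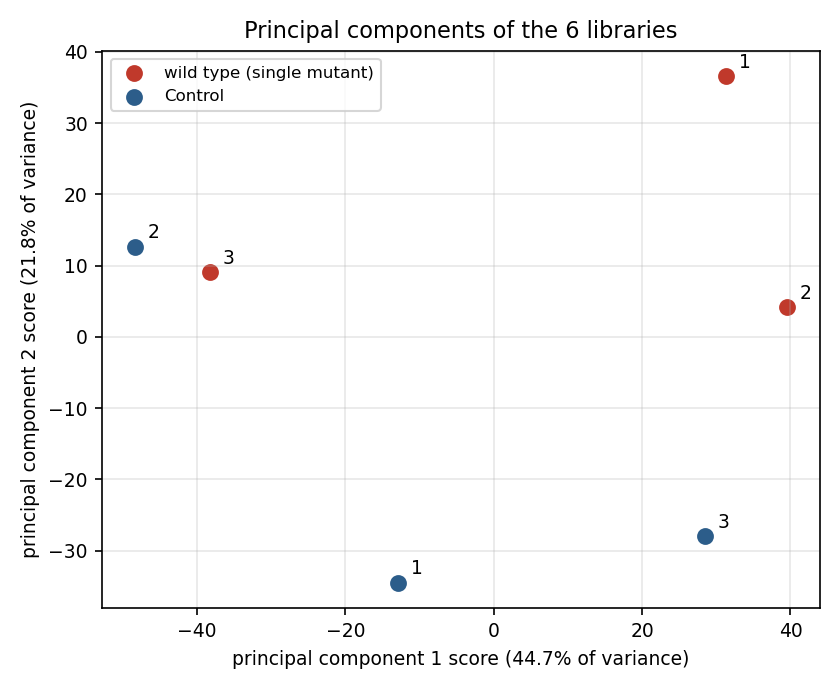
Scores of the 6 libraries on the first principal component (horizontal, 44.7% of the variance) and the second (vertical, 21.8%), computed from log CPM of the tested genes, with replicate numbers beside the points. Red points are wild type (single mutant) and blue points Control. Libraries of both groups lie at both ends of the first component, with wild type (single mutant) library 3 at -38.2 beside Control library 2 at -48.3.

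No gene passed the test. Of 16262 genes tested with edgeR's quasi-likelihood test, 0 had a Benjamini-Hochberg adjusted p under 0.05, which is 0% of those tested, and the lowest adjusted p was 0.9996. At an unadjusted p under 0.05 there were 527 genes (3.24%), of which 232 were higher and 295 lower in wild type (single mutant) kidneys. That share is below the threshold itself. limma voom also called 0 genes (484 at an unadjusted p under 0.05), and the edgeR fit over all 10 libraries called 0 (724 at an unadjusted p under 0.05). DESeq2 called 18 genes, 3 of them higher and 15 lower, and for all 18 the 3 libraries of one group lay beyond the 3 of the other. Higher and lower therefore describe levels here, and every adjusted p from edgeR on the 6 libraries that is not printed is 0.9996 or above.

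Separation of the single libraries gives a second view. For 1229 genes (7.56% of those tested) all 3 wild type (single mutant) libraries lay above or below all 3 Control libraries. They lay above for 652 genes (4.01%) and below for 577 genes (3.55%). The median log2 fold change (wild type (single mutant) over Control) of all tested genes was 0.0065. With a level of at least 1 CPM on average and more than a log2 fold change of 1 in size, 24 separated genes were higher and 37 lower. By chromosome the separated share ran from 5.49% on chromosome 15 to 11.19% on chromosome 12, with 10.95% on chromosome 17. These shares are the measure against which each gene group is read.

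The gene with the lowest p among those of podocytes was Kirrel2, which encodes the Neph protein filtrin of the slit diaphragm. Kirrel2 (chromosome 7, 30447534 to 30457690, minus strand, GRCm38) had 0.159, 0.237 and 0.188 CPM in wild type (single mutant) kidneys, against 5.35, 8.34 and 2.02 CPM in Control kidneys. In raw reads these were 5, 7 and 6 counts in wild type (single mutant) libraries and 166, 249 and 55 counts in Control libraries. All 3 wild type (single mutant) libraries were far below the lowest Control library, with a log2 fold change of -4.72 ± 0.60 SE and an unadjusted p of 0.000123 by edgeR. The adjusted p was 0.9996 by edgeR on the 6 libraries, 0.165 by edgeR on all 10 libraries, 0.999 by limma voom and 4.85e-10 by DESeq2. Leaving out each library in turn, its log2 fold change ran from -5.11 to -4.23, and within the NA_-titled libraries (1 wild type (single mutant), 2 Control) it was -5.16. The kidneys with a risk allele lay within the Control range: Kirrel2 had 2.74 and 2.91 CPM in G1-APOL1, and 4.54 and 5.0 CPM in G2-APOL1 kidneys.

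The start sites of Kirrel2 and Nphs1, the nephrin gene, lie back to back. In GENCODE the gene bodies are 624 bases apart (Nphs1, chromosome 7, 30458315 to 30487223, plus strand), and the RefSeq start sites are 2543 bases apart. Their upstream sequences are shown because one of this adjacent pair of slit diaphragm genes was separated between the groups and the other was not. Each is 250 bases of the gene's own strand, ending at the base before the RefSeq start site (GRCm38.p6), at chr7:30457516-30457765 on the minus strand for Kirrel2 and chr7:30459808-30460057 on the plus strand for Nphs1.
Kirrel2: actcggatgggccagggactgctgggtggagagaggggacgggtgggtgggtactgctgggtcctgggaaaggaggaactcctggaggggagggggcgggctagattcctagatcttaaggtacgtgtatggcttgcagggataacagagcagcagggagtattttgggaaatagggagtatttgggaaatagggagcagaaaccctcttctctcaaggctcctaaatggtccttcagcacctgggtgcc
Nphs1: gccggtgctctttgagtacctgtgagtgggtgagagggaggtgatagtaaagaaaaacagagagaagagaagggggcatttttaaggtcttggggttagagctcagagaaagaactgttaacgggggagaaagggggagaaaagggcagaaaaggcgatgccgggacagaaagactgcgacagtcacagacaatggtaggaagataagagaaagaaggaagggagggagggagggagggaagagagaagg
No capitals are used in this pair, since no motif was searched for here beyond those named with the immediate early genes, and neither sequence held one.

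Nphs1 had 17.4, 8.66 and 29.8 CPM in wild type (single mutant) kidneys, against 9.34, 20.8 and 5.43 CPM in Control kidneys. The groups overlapped, with the highest level in wild type (single mutant) library 3 and the lowest in Control library 3, and the log2 fold change of 0.65 ± 0.59 SE had an adjusted p of 0.9996 by edgeR. Set against nephrin in the same library, Kirrel2 had 0.916, 2.73 and 0.633 counts per 100 Nphs1 counts in wild type (single mutant) libraries, against 57.2, 40.2 and 37.2 in Control libraries. The same ratio was 66.5 and 55.1 in G1-APOL1 and 50.5 and 56.5 in G2-APOL1 libraries. Wild type (single mutant) libraries therefore stood apart from the other 7 in this ratio as well as in the level. The 8 nearest tested neighbours of Kirrel2, 4 on each side, had log2 fold changes from -0.62 to 0.65, and 0 of them separated the groups. Aplp1, an amyloid precursor-like protein gene 1999 bases away on the far side of Kirrel2, had 6.27, 5.21 and 10.2 CPM in wild type (single mutant) kidneys, against 7.57, 10.2 and 4.48 CPM in Control kidneys.

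**Figure D2:**
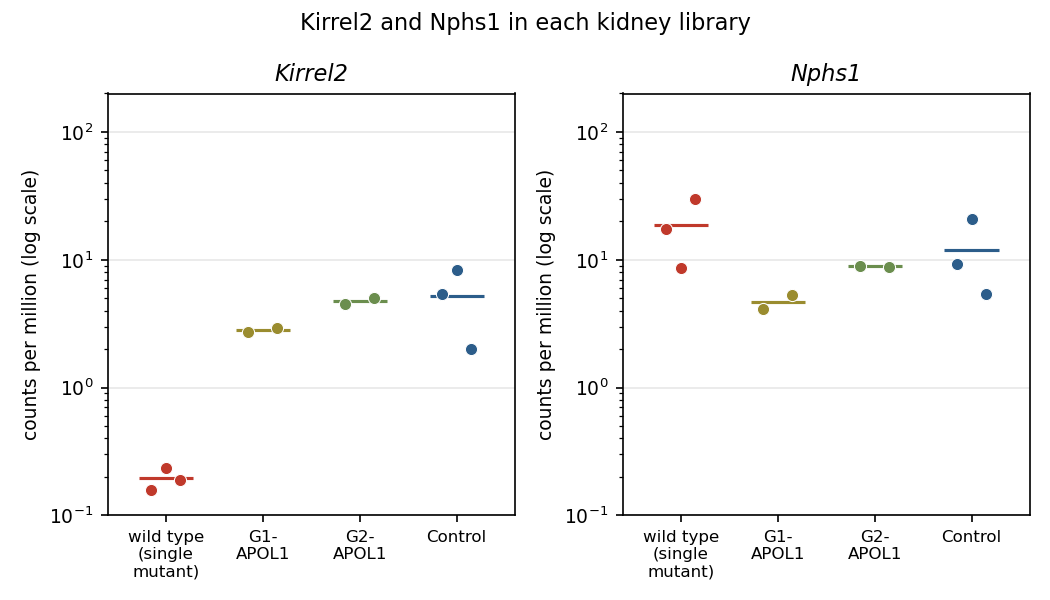
Levels of Kirrel2 and Nphs1 (nephrin) in CPM on a log axis, with 1 point per library and a bar at the group mean. From left to right in each panel the groups are wild type (single mutant), G1-APOL1, G2-APOL1 and Control. The 3 wild type (single mutant) points of Kirrel2 lie between 0.159 and 0.237 CPM, below every other library, while those of Nphs1 overlap the Control points.

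The other podocyte genes had smaller differences or overlapped. Of 58 podocyte genes listed, 55 were tested, 1 was lower without overlap (Kirrel2) and 2 were higher (Plce1 and Dpp4), and the median log2 fold change was 0.17. Without wild type (single mutant) library 3, 9 were lower (12.1% of all tested genes were), without wild type (single mutant) library 2, 8 were higher (9.89% of all), and with library totals alone as the scale 0 were higher. Podxl, the sialomucin podocalyxin of foot processes, had 141, 94.9 and 231 CPM in wild type (single mutant) kidneys, against 115, 153 and 87.7 CPM in Control kidneys (log2 fold change of 0.40 ± 0.34 SE). Synpo, the actin-binding synaptopodin, had 30.0, 22.1 and 57.2 CPM in wild type (single mutant) kidneys, against 25.7, 42.9 and 20.9 CPM in Control kidneys (log2 fold change of 0.29 ± 0.40 SE). Library 3 of wild type (single mutant) and library 2 of Control were the highest of their groups for both genes, and the groups overlapped. Wt1, a transcription factor that podocytes keep through life, had 3.92, 2.84 and 9.27 CPM in wild type (single mutant) kidneys, against 3.09, 5.26 and 2.5 CPM in Control kidneys (log2 fold change of 0.56 ± 0.50 SE). Plce1, a phospholipase C needed for glomerular maturation, had 5.83, 4.97 and 8.51 CPM in wild type (single mutant) kidneys, against 3.67, 4.79 and 4.19 CPM in Control kidneys (log2 fold change of 0.61 ± 0.24 SE), with no overlap.

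Most immediate early genes had lower levels in wild type (single mutant) kidneys, though 0 of 32 passed edgeR's test. Of 36 listed genes, 32 were tested and 31 had a log2 fold change below 0, with a median of -0.83 against 0.0065 for all tested genes. For 15 of the 32 (46.9%) all 3 wild type (single mutant) libraries were below all 3 Control libraries, against 3.55% of all tested genes, and 0 were above. At an unadjusted p under 0.05 there were 19 lower members and 0 higher. DESeq2 called 4 of them, Nr4a1, Egr1, Fos and Jun. Of the 32, 20 had their highest level in Control library 1, and without that library 15 were still lower without overlap, when 5.93% of all tested genes were. Over all leave-one-out settings the count ran from 15 to 22, beside 5.42% to 12.1% of all tested genes. Within the NA_-titled libraries 21 members were lower without overlap, as were 32.9% of all tested genes. The members named here, other than Nr4a1, were picked after their values were seen.

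The 4 genes that DESeq2 called are all transcription factors. Fos, a subunit of the AP-1 factor, had 0.733, 0.947 and 0.88 CPM in wild type (single mutant) kidneys, against 11.1, 2.85 and 3.08 CPM in Control kidneys. Control library 1 was the highest, and every wild type (single mutant) library was below every Control library (log2 fold change of -2.73 ± 0.59 SE, adjusted p of 0.9996 by edgeR and 0.00485 by DESeq2). Egr1, a zinc finger factor induced by growth signals, had 3.12, 5.17 and 3.61 CPM in wild type (single mutant) kidneys, against 28.8, 9.21 and 18.1 CPM in Control kidneys. Its groups did not overlap either, and the wild type (single mutant) libraries lay within a narrow band (log2 fold change of -2.24 ± 0.43 SE, adjusted p of 0.000291 by DESeq2). Nr4a1, an orphan nuclear receptor and 1 of the 3 lower genes with the lowest p, had 3.31, 2.64 and 2.98 CPM in wild type (single mutant) kidneys, against 20.9, 11.8 and 9.51 CPM in Control kidneys. The 3 wild type (single mutant) libraries were close together and all lay below Control (log2 fold change of -2.24 ± 0.32 SE, unadjusted p of 0.000232 by edgeR, adjusted to 0.9996, while DESeq2 gave an adjusted p of 1.2e-07). Jun, the partner of Fos in AP-1, had 31.8, 23.9 and 23.8 CPM in wild type (single mutant) kidneys, against 66.1, 37.7 and 55.7 CPM in Control kidneys. Its groups were separate (log2 fold change of -1.0 ± 0.22 SE, adjusted p of 0.0328 by DESeq2).

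Fosb, Egr2 and Junb also separated the groups, and Atf3 did not. Fosb had 0.159, 0.135 and 0.251 CPM in wild type (single mutant) kidneys, against 3.51, 1.07 and 0.441 CPM in Control kidneys (log2 fold change of -3.17 ± 0.82 SE). Egr2 had 0.478, 0.237 and 0.283 CPM in wild type (single mutant) kidneys, against 2.09, 0.67 and 1.06 CPM in Control kidneys (log2 fold change of -1.93 ± 0.52 SE). Both separated the groups at low levels, with Control library 1 the highest. Junb had 8.79, 15.5 and 15.1 CPM in wild type (single mutant) kidneys, against 37.2, 16.3 and 32.4 CPM in Control kidneys (log2 fold change of -1.13 ± 0.35 SE), and its gap between the nearest libraries of the 2 groups was narrow. Atf3, a stress-induced factor, had 2.42, 2.23 and 2.04 CPM in wild type (single mutant) kidneys, against 45.7, 2.41 and 4.7 CPM in Control kidneys. Only Control library 1 was high, the groups overlapped, and the log2 fold change of -2.98 became -0.67 without that library.

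Among genes that damp signalling or decay transcripts, Dusp2, Zfp36 and Btg2 separated the groups and Dusp1 did not. Dusp2, a phosphatase that inactivates MAP kinases, had 0.541, 0.473 and 0.534 CPM in wild type (single mutant) kidneys, against 1.71, 1.84 and 0.734 CPM in Control kidneys (log2 fold change of -1.46 ± 0.40 SE). Zfp36, the mRNA decay factor tristetraprolin, had 43.1, 41.1 and 23.6 CPM in wild type (single mutant) kidneys, against 49.3, 62.5 and 102 CPM in Control kidneys (log2 fold change of -0.99 ± 0.33 SE). Btg2, an antiproliferative gene, had 14.8, 20.2 and 18.4 CPM in wild type (single mutant) kidneys, against 77.7, 26.3 and 38.6 CPM in Control kidneys (log2 fold change of -1.42 ± 0.39 SE). All of these separated the groups, and the highest library differed among them. Maff, a small Maf factor, had 2.26, 4.63 and 2.98 CPM in wild type (single mutant) kidneys, against 7.8, 6.23 and 6.9 CPM in Control kidneys (log2 fold change of -1.08 ± 0.28 SE), again without overlap. Dusp1, another MAP kinase phosphatase, did not separate them, with 82.5, 113 and 33.8 CPM in wild type (single mutant) kidneys, against 77.6, 81.5 and 151 CPM in Control kidneys. Fosl1 was the 1 tested member above 0, with 0.541, 0.71 and 0.44 CPM in wild type (single mutant) kidneys, against 0.419, 0.402 and 0.698 CPM in Control kidneys.

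**Figure D3:**
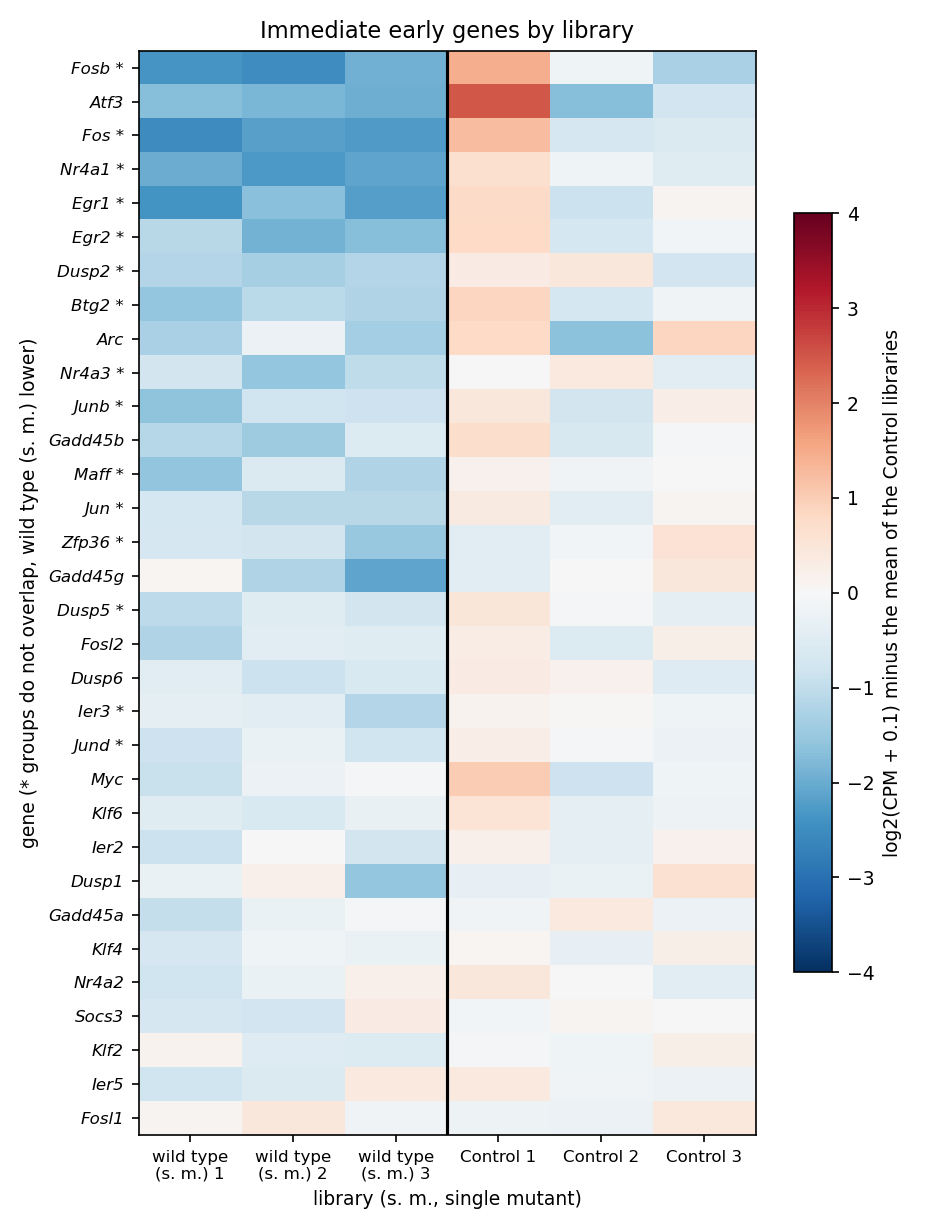
Immediate early genes (rows, ordered by log2 fold change) in the 6 libraries (columns, wild type (single mutant) left of the line and Control right of it). Colour gives log2(CPM + 0.1) minus the mean of the Control libraries on that scale, blue for lower and red for higher, and a star marks the 15 genes for which all wild type (single mutant) libraries were below all Control libraries. Most starred genes are blue in all 3 wild type (single mutant) columns, and Control library 1 is the reddest column.

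Promoter sequences were found in RefSeq (GRCm38.p6) for 27 of the tested immediate early genes. The half-site of the cyclic AMP response element, TGACG on either strand, stood in the 250 bases upstream of 14 of the 27, against 17.9% of 32536 promoters. The full palindrome TGACGTCA, which contains the half-site, stood in 3 of the 27, against 1.56% of all promoters. The CArG box that serum response factor binds stood in 3 of the 27, against 1.48%. A gene with more than 1 promoter sequence was counted when any of them held the motif, while the shares of all promoters count single sequences. The units are thus unlike. A match is a description of these letters and not a binding site. The sequences of Fos, Fosb and Nr4a1 are shown as the separated members with the largest fold changes that have a half-site, with each half-site in capitals (TGACG, or its reverse complement CGTCA), at chr12:85473640-85473889 on the plus strand, chr7:19310046-19310295 on the minus strand and chr15:101266596-101266845 on the plus strand.
Fos: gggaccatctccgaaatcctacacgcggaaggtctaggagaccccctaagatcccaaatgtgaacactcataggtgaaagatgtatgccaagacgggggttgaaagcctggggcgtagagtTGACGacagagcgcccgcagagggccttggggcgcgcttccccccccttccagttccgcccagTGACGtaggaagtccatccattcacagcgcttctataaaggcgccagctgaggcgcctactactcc
Fosb: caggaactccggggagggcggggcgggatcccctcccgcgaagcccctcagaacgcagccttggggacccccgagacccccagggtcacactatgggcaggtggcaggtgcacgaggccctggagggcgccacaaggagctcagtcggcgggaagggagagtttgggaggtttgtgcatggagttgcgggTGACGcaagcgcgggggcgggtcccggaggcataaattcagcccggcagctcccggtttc
Nr4a1: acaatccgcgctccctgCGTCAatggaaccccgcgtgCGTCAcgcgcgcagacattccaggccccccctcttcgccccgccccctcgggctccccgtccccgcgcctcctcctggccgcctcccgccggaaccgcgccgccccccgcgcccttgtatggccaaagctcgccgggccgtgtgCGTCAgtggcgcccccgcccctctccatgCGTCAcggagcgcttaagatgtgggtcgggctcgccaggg
Fos held 2 half-sites, Fosb 1 and Nr4a1 4. Neither Fos, Fosb nor Nr4a1 held the full palindrome or the CArG box in this window.

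Immunoglobulin transcripts, which mark antibody-secreting cells, had lower levels in most wild type (single mutant) libraries but not in all. Of 264 annotated immunoglobulin segments, 76 were tested, 64 had a log2 fold change below 0, and the median was -1.36. For 15 of the 76 all wild type (single mutant) libraries were below all Control libraries, against 3.55% of all tested genes, and for 0 above. The filter on low counts bears on these counts. Some segments passed it through the Control libraries alone, such as Iglv2, with 1, 0 and 1 counts in wild type (single mutant) and 43, 39 and 16 in Control. Such a segment could only be lower, so the counts of lower segments describe the tested set and are not support for a difference. The summed level was 28.6, 78.5 and 925 CPM in wild type (single mutant) libraries, against 515, 1615 and 597 CPM in Control libraries. Library 3 of wild type (single mutant) was therefore inside the Control range, and the sums overlapped. The sums were 44.5 and 50.7 CPM in G1-APOL1 and 296 and 85.2 CPM in G2-APOL1 kidneys.

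Igha, the heavy chain constant region of IgA, had 9.81, 34.1 and 167 CPM in wild type (single mutant) kidneys, against 209.7, 731 and 305 CPM in Control kidneys (log2 fold change of -2.56 ± 1.01 SE), without overlap. Igkc, the kappa constant region, had 6.05, 24.6 and 262 CPM in wild type (single mutant) kidneys, against 159.8, 494 and 209 CPM in Control kidneys, with overlap. Iglv2, a lambda variable segment and the tested gene with the lowest edgeR p, had 1, 0 and 1 counts in wild type (single mutant) libraries, against 43, 39 and 16 counts in Control libraries. The ratio of the summed counts, wild type (single mutant) over Control at equal library size, was 0.0194, with an exact 95% interval of 0.00231 to 0.0719 that covers counting error only. Its unadjusted p was 0.000107 by edgeR and its adjusted p 0.00557 by DESeq2. Segments of this family share sequence, and reads may have been split between copies, so single segments are uncertain. Jchain, which joins IgA dimers, had 1.85, 4.36 and 51 CPM in wild type (single mutant) kidneys, against 44.6, 116 and 34.8 CPM in Control kidneys. As with the summed segments, wild type (single mutant) library 3 was inside the Control range and Control library 2 was the highest. Mzb1, a chaperone of plasma cells, had 1.31, 1.08 and 2.26 CPM in wild type (single mutant) kidneys, against 1.74, 3.68 and 1.54 CPM in Control kidneys. Of 23 tested B and plasma cell genes, Blk and Igha were lower without overlap (8.7%, against 3.55% of all). The count was 17 without wild type (single mutant) library 3 (73.9%, beside 12.1% of all tested genes), and without Control library 1 it was 4 of 25 (16%, beside 5.93%).

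Red cell transcripts were lower without overlap in wild type (single mutant) kidneys in 4 of 11 tested genes (36.4%, against 3.55% of all), and 0 were higher. Of the 11, 7 had a log2 fold change below 0 and 4 above. Library totals alone gave 3 lower (27.3%, beside 3.78% of all). With a library left out the lower count ran from 4 to 6, beside 5.42% to 12.1% of all. Without wild type (single mutant) library 1 or 3 or Control library 2, 1 was higher (9.09%, beside 5.53%, 12.5% or 8.22% of all). Hbb-bs, an adult beta globin, had 114, 201 and 184 CPM in wild type (single mutant) kidneys, against 389, 388 and 205 CPM in Control kidneys (log2 fold change of -0.97 ± 0.31 SE). Alas2, the erythroid enzyme that starts haem synthesis, had 9.27, 13.1 and 15 CPM in wild type (single mutant) kidneys, against 24.8, 27.2 and 16.9 CPM in Control kidneys (log2 fold change of -0.88 ± 0.24 SE). Hba-a1 and Hbb-bt were the other two that separated, and Control library 3 came nearest to the wild type (single mutant) levels in each of the 4. Globin copies are near-identical and share reads: Hba-a2 had 0.318, 0.372 and 51.1 CPM in wild type (single mutant) kidneys, against 91.7, 0.871 and 0.624 CPM in Control kidneys, a spread that followed neither group. How much blood the kidneys held was not measured.

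Antigen presentation genes had their highest summed level in Control library 2. Of 27 tested antigen presentation genes, 24 had a log2 fold change below 0, with a median of -0.94. Lower without overlap were 3 (H2-K1, H2-D1 and Tapbp, 11.1%, against 3.55% of all tested genes). Their summed level was 1600, 1401 and 1804 CPM in wild type (single mutant) libraries, against 2014, 6014 and 1507 CPM in Control libraries. Without Control library 2, 3 of the 27 were lower without overlap (11.1%, beside 9.71% of all tested genes) and 1 was higher (3.7%, beside 8.22%). Without Control library 3, 12 were lower (44.4%, beside 11.1% of all tested genes). Without wild type (single mutant) library 1 or library 3 the lower count was 5 (18.5%, beside 5.42% or 12.1%). H2-K1, a class I heavy chain, had 185, 228 and 252 CPM in wild type (single mutant) kidneys, against 288, 677 and 268 CPM in Control kidneys (log2 fold change of -0.89 ± 0.37 SE). Cd74, the class II invariant chain, had 178, 139 and 289 CPM in wild type (single mutant) kidneys, against 291, 1759 and 166 CPM in Control kidneys, and Control library 2 was the high one in both. Class I genes are near-identical copies, and their counts are uncertain for that reason.

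Of 50 tested interferon response genes, 46 had a log2 fold change below 0, with a median of -0.32. Lower without overlap were 3 (Isg20, Oasl1 and Zbp1, 6%, against 3.55% of all tested genes). Without Control library 2 the count was 4 of 50 (8%, beside 9.71% of all tested genes), and 3 were higher (6%, beside 8.22%). Without Control library 3 it was 11 of 51 (21.6%, beside 11.1% of all tested genes). Without wild type (single mutant) library 3 it was 8 (15.7%, beside 12.1%), and without wild type (single mutant) library 2 it was 5 (9.8%, beside 9.01%). Irgm2, an interferon-gamma-induced GTPase, had 18.3, 10.7 and 16.4 CPM in wild type (single mutant) kidneys, against 12.7, 131 and 10.9 CPM in Control kidneys. Again Control library 2 alone was high, and the other 5 libraries lay between 10.7 and 18.3 CPM. Zbp1, a sensor of left-handed nucleic acids, had 1.02, 0.981 and 1.07 CPM in wild type (single mutant) kidneys, against 1.8, 2.98 and 1.18 CPM in Control kidneys (log2 fold change of -0.96 ± 0.37 SE). Oasl1, an oligoadenylate synthetase-like gene, had 1.31, 1.25 and 1.38 CPM in wild type (single mutant) kidneys, against 2.55, 2.55 and 1.69 CPM in Control kidneys (log2 fold change of -0.78 ± 0.25 SE). For Zbp1 and Oasl1, Control libraries 1 and 3 were also above all wild type (single mutant) libraries.

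Most genes of the unfolded protein response and chaperones had slightly lower levels in wild type (single mutant) kidneys, with overlapping sums. Of 37 tested genes, 32 had a log2 fold change below 0, the median was -0.20, and 7 were lower without overlap (18.9%, against 3.55% of all). The summed level was 9258, 10440 and 8502 CPM in wild type (single mutant) libraries, against 11670, 8585 and 10540 CPM in Control libraries. Pdia6, a protein disulfide isomerase, had 204, 244 and 234 CPM in wild type (single mutant) kidneys, against 283, 279 and 255 CPM in Control kidneys (log2 fold change of -0.26 ± 0.10 SE). Chac1, a glutathione-degrading target of the stress factor ATF4, had 0.86, 1.18 and 1.45 CPM in wild type (single mutant) kidneys, against 2.29, 1.47 and 4.52 CPM in Control kidneys (log2 fold change of -1.24 ± 0.45 SE). The nearest libraries of the groups were close for both, at 244 and 255 CPM for Pdia6 and 1.45 and 1.47 CPM for Chac1. Chac1 was at a low level. Without Control library 2, 23 of the 37 were lower without overlap, beside 9.71% of all tested genes. Without wild type (single mutant) library 2 the count was 14, beside 9.01%. Without wild type (single mutant) library 3 or Control library 3 it was 7 (18.9%, beside 12.1% or 11.1%).

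DESeq2 called 9 further lower genes, all picked here for that call after the values were seen. One is Ighv3-4, an immunoglobulin heavy chain variable segment, with 1, 1 and 3 counts in wild type (single mutant) libraries, against 14, 28 and 39 counts in Control libraries (adjusted p of 0.0183 by DESeq2). H3f3b, a histone H3.3 gene, had 189, 195 and 172 CPM in wild type (single mutant) kidneys, against 261, 289.9 and 267 CPM in Control kidneys. The groups did not overlap and the spread within each was small (log2 fold change of -0.56 ± 0.09 SE, adjusted p of 0.000461 by DESeq2). Cebpb, a transcription factor of the acute phase and of fat cells, had 22.4, 20.3 and 14.7 CPM in wild type (single mutant) kidneys, against 36.6, 34 and 57 CPM in Control kidneys (log2 fold change of -1.15 ± 0.24 SE, adjusted p of 0.0169 by DESeq2). Lum, the collagen-binding lumican of fibroblasts, had 2.42, 3.48 and 2.58 CPM in wild type (single mutant) kidneys, against 6.83, 5.73 and 5.25 CPM in Control kidneys (log2 fold change of -1.07 ± 0.21 SE, adjusted p of 0.0276 by DESeq2). Sema4b, a transmembrane semaphorin, had 30.2, 31.5 and 35.5 CPM in wild type (single mutant) kidneys, against 52.7, 43.9 and 57.8 CPM in Control kidneys (log2 fold change of -0.67 ± 0.13 SE, adjusted p of 0.0183 by DESeq2). In H3f3b, Cebpb, Lum and Sema4b the wild type (single mutant) libraries were the 3 lowest. Arl4d, Dhrs7, Nxph4 and Klf11 were the other 4, with DESeq2 adjusted p from 0.0185 to 0.0376. Pdk4, a kinase that turns off pyruvate oxidation in fasting, was not called by DESeq2 but was also separated, with 28.2, 29.6 and 37.2 CPM in wild type (single mutant) kidneys, against 127, 42.5 and 78.4 CPM in Control kidneys (log2 fold change of -1.38 ± 0.37 SE).

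Among genes with higher levels in wild type (single mutant) kidneys, the 3 with the lowest p were Grid1, Acss3 and Gna14. Acss3, a mitochondrial short-chain acyl-CoA synthetase, had 13.2, 20.1 and 17.2 CPM in wild type (single mutant) kidneys, against 8.02, 8.44 and 9.47 CPM in Control kidneys. Every wild type (single mutant) library was above every Control library (log2 fold change of 0.96 ± 0.18 SE, unadjusted p of 0.0012 by edgeR, adjusted to 0.9996, while DESeq2 gave an adjusted p of 0.0126). Gna14, a G protein alpha subunit of the Gq family, had 17.4, 20.1 and 21.7 CPM in wild type (single mutant) kidneys, against 10.9, 12.6 and 12.9 CPM in Control kidneys (log2 fold change of 0.70 ± 0.13 SE, adjusted p of 0.0183 by DESeq2). Grid1, a delta-type glutamate receptor subunit, had 0.86, 0.811 and 0.565 CPM in wild type (single mutant) kidneys, against 0.258, 0.167 and 0.184 CPM in Control kidneys, all under 1 CPM (log2 fold change of 1.85 ± 0.34 SE).

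Cell cycle genes were higher without overlap in 6 of 37 tested members (16.2%, against 4.01% of all), namely Mki67, Top2a, Ccna2, Kif11, Mcm3 and E2f1, and lower in 0. The median log2 fold change was 0.26. Mki67, a protein of dividing cells, had 4.81, 4.09 and 3.83 CPM in wild type (single mutant) kidneys, against 3.22, 3.18 and 2.86 CPM in Control kidneys (log2 fold change of 0.46 ± 0.18 SE). E2f1, a factor that drives entry into DNA synthesis, had 3.89, 3.65 and 3.17 CPM in wild type (single mutant) kidneys, against 2.38, 2.41 and 2.2 CPM in Control kidneys (log2 fold change of 0.61 ± 0.19 SE). The levels were low in both groups, and the gaps between them were narrow. Without wild type (single mutant) library 2 or library 3 the count was 12, beside 9.89% or 12.5% of all tested genes. Without Control library 1 or library 2 it was 10, beside 6.9% or 8.22%. Library totals alone gave 4 (10.8%, beside 3.3% of all). Without wild type (single mutant) library 1 or 2 or Control library 3, 1 member was lower, beside 5.42%, 9.01% or 11.1% of all. Without Control library 2, 2 were lower (5.26%, beside 9.71% of all).

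The largest higher value belonged to Ttr, transthyretin, a plasma carrier of thyroid hormone made by liver and choroid plexus. Ttr had 372, 291 and 2.92 CPM in wild type (single mutant) kidneys, against 2.13, 2.65 and 1.69 CPM in Control kidneys. Libraries 1 and 2 of wild type (single mutant) were high, and library 3 lay just above the Control range (log2 fold change of 6.68 ± 1.57 SE, adjusted p of 0.9996 by edgeR and 0.00485 by DESeq2). Without library 3 of wild type (single mutant) edgeR called Ttr (log2 fold change of 7.26, adjusted p of 0.000908). In the kidneys with a risk allele Ttr had 131 and 105 CPM in G1-APOL1, and 308 and 1.25 CPM in G2-APOL1. High and low levels thus occurred within a genotype.

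Of 26 tested liver and plasma protein genes, 5 were higher without overlap (Apoa1, Ttr, Serpina3k, Ahsg and Cyp3a11, 19.2%, against 4.01% of all) and 0 lower. Of the 26, 16 were highest in wild type (single mutant) library 1. Without wild type (single mutant) library 2 or library 3 the higher count was 8 or 9 (9.89% or 12.5% of all tested genes), and without Control library 3 it was 8 (10.8% of all). Without wild type (single mutant) library 1, 5 were higher (5.53% of all) and 1 was lower (5.42% of all). Without Control library 2, 5 were higher (8.22% of all) and 4 were lower (15.4%, beside 9.71% of all). Alb, serum albumin, had 185, 8.08 and 20.4 CPM in wild type (single mutant) kidneys, against 10.9, 11.3 and 10.3 CPM in Control kidneys. Ahsg, the plasma glycoprotein fetuin-A, had 21.3, 1.05 and 0.911 CPM in wild type (single mutant) kidneys, against 0.29, 0.134 and 0.845 CPM in Control kidneys (log2 fold change of 4.21 ± 1.46 SE). Apoa1, the main protein of high-density lipoprotein, had 14.6, 3.35 and 1.45 CPM in wild type (single mutant) kidneys, against 1.16, 0.603 and 1.29 CPM in Control kidneys (log2 fold change of 2.66 ± 0.86 SE). In each of these library 1 carried the difference, and the other wild type (single mutant) libraries were much closer to the Control range. Serpina3k, with 24.3, 2.2 and 1.45 CPM in wild type (single mutant) kidneys, against 0.548, 0.134 and 1.29 CPM in Control kidneys, belongs to a family of close copies, and its counts are uncertain. The summed level of the list was 877, 432 and 324 CPM in wild type (single mutant) libraries, against 243, 295 and 189 CPM in Control libraries. Whether liver RNA reached library 1 was not tested.

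A total of 176 tested genes differed more than 16-fold between their highest and lowest library among the 6, after 0.1 CPM was added to each level, counting genes with more than 2 CPM in the highest. For 119 of them the difference was as wide within 1 group, for 23 the groups did not overlap, and 45 were immunoglobulin segments. The genes that follow were picked after their values were seen. Rpsa-ps10, a processed pseudogene of a ribosomal protein gene, had 53.4, 64.5 and 2.1 CPM in wild type (single mutant) kidneys, against 2.87, 2.24 and 2.5 CPM in Control kidneys. It followed Ttr, with libraries 1 and 2 of wild type (single mutant) high, and its reads may belong to the parent gene or to other copies. Among the 6, those libraries alone have titles that begin with the letter G. In the kidneys with a risk allele Rpsa-ps10 had 93.3 and 201 CPM in G1-APOL1, and 98.8 and 2.74 CPM in G2-APOL1. C1s1, a complement protease, had 11.2, 15.4 and 0.0628 CPM in wild type (single mutant) kidneys, against 13.7, 13.5 and 17 CPM in Control kidneys, where the low library held 2 counts. Rps3a3, another copy of a ribosomal protein gene, had 44.4, 48 and 49.8 CPM in wild type (single mutant) kidneys, against 63.2, 1.31 and 1.36 CPM in Control kidneys, so the low ones were in Control. Akr1c18, a hydroxysteroid dehydrogenase, had 124, 148 and 126 CPM in wild type (single mutant) kidneys, against 13.6, 4.12 and 97.1 CPM in Control kidneys, and its groups did not overlap although Control library 3 came close.

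Clock genes split the libraries across the groups. None of 21 tested members separated wild type (single mutant) from Control, and the median log2 fold change was 0.0020. Arntl, the activator that the clock's feedback loop turns on itself, had 1.53, 2.77 and 31.8 CPM in wild type (single mutant) kidneys, against 20.4, 15.6 and 2.72 CPM in Control kidneys. Dbp, an output factor that peaks in the opposite phase, had 133, 88.5 and 4.96 CPM in wild type (single mutant) kidneys, against 10.8, 29.8 and 99.7 CPM in Control kidneys. Library 3 of wild type (single mutant) and Control libraries 1 and 2 had high Arntl and low Dbp, and the other 3 libraries the reverse. The libraries with high Arntl and low Dbp were the NA_-titled ones, so this split went with the titles. The times at which the kidneys were taken are not given in the labels.

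Fat cell genes split them as well. Of 16 tested adipose genes, 0 separated the groups. Without Control library 2, 7 were lower without overlap (43.8%, beside 9.71% of all tested genes). Adipoq, the fat cell hormone adiponectin, had 12.3, 8.69 and 0.471 CPM in wild type (single mutant) kidneys, against 14.6, 0.502 and 32.6 CPM in Control kidneys. Ucp1, the uncoupling protein of brown fat, had 14.2, 14.5 and 0.346 CPM in wild type (single mutant) kidneys, against 7.38, 0.0335 and 43.6 CPM in Control kidneys. Library 3 of wild type (single mutant) and library 2 of Control were near 0 for both. The summed level of the list was 1603, 1973 and 748 CPM in wild type (single mutant) libraries, against 1212, 641 and 2601 CPM in Control libraries. Adipose transcripts were thus unequal between libraries of 1 group, and their part in other differences was not tested.

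**Figure D4:**
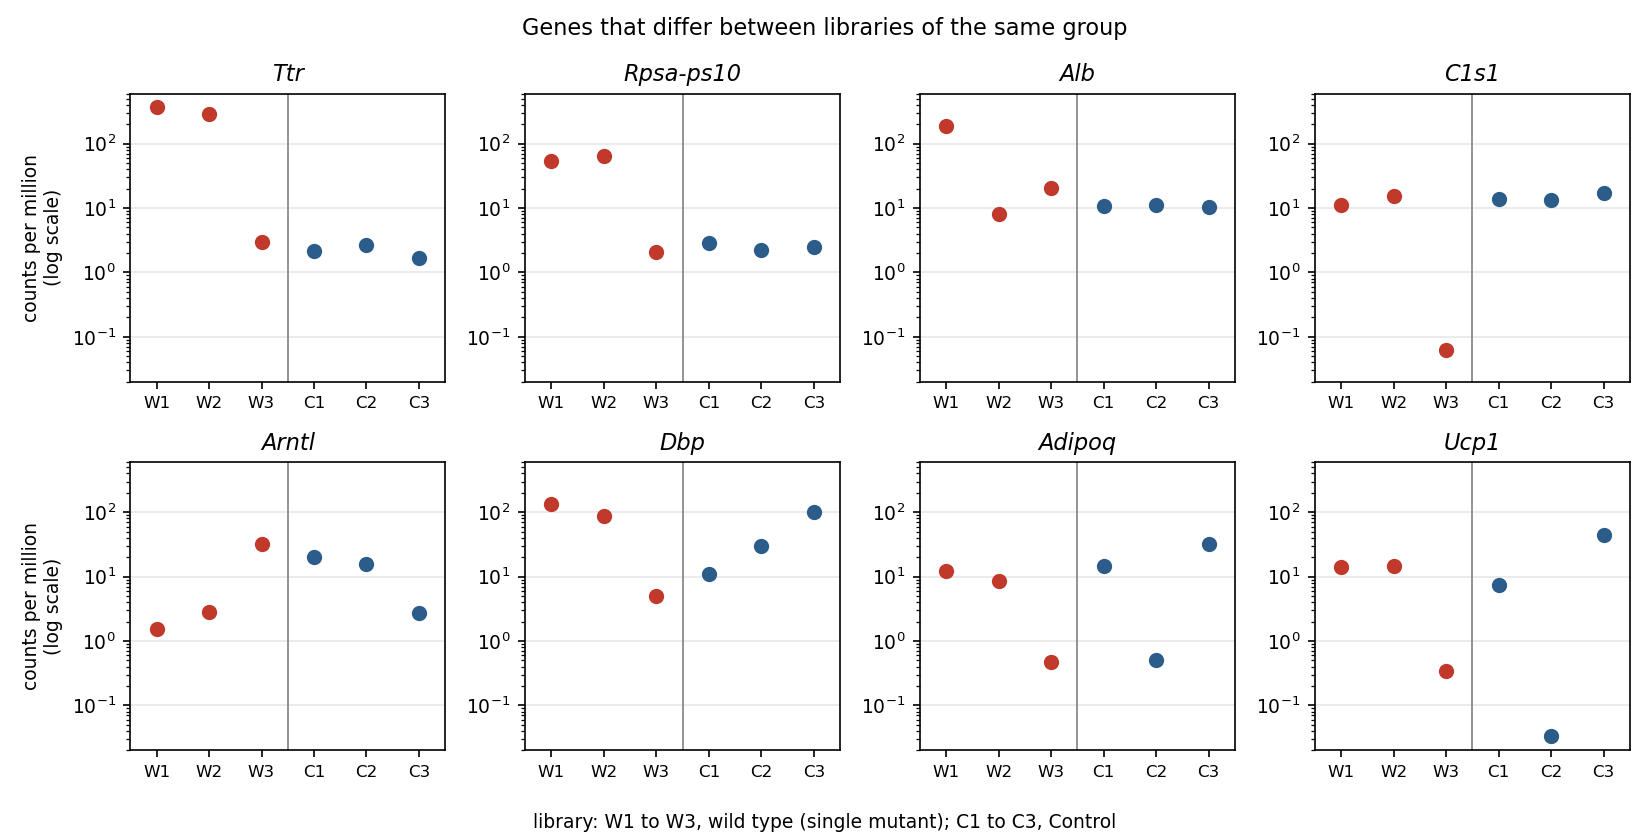
Levels of 8 genes in CPM (log axis) in wild type (single mutant) libraries 1 to 3 (W1 to W3, red) and Control libraries 1 to 3 (C1 to C3, blue). Ttr and Rpsa-ps10 are high in W1 and W2 alone and Alb in W1, C1s1 is near 0 in W3, and Arntl, Dbp, Adipoq and Ucp1 split the libraries across both groups.

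Tubule genes were close between the groups. For proximal tubule S1 and S2, 41 genes were tested, 2 were higher without overlap (Slc3a1 among them), 0 were lower, and the median log2 fold change was 0.01. Slc3a1, the heavy chain of a cystine transporter, had 452, 480.1 and 371 CPM in wild type (single mutant) kidneys, against 349, 278 and 339 CPM in Control kidneys. Lrp2, the endocytic receptor megalin, had 1776, 1679.8 and 1562 CPM in wild type (single mutant) kidneys, against 1599, 1756 and 2007 CPM in Control kidneys (log2 fold change of -0.10 ± 0.13 SE). Slc34a1 had a log2 fold change of 0.13 ± 0.15 SE. Leaving out wild type (single mutant) library 3, 10 of the 41 were higher (12.5% of all tested genes were). In the thick ascending limb 2 of 19 were higher (Cldn16 and Irx1; without Control library 3, 7 of 20, beside 10.8% of all), and Umod, the secreted uromodulin, had 3353, 3381 and 3395 CPM in wild type (single mutant) kidneys, against 2624, 2496 and 3716 CPM in Control kidneys (log2 fold change of 0.20 ± 0.18 SE). In the distal convoluted and connecting tubule 0 of 21 separated the groups, and Slc12a3, the thiazide-sensitive cotransporter, had 437, 379 and 609 CPM in wild type (single mutant) kidneys, against 472, 689 and 355 CPM in Control kidneys (log2 fold change of -0.09 ± 0.28 SE).

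Genes of collecting duct principal cells had a lower sum in wild type (single mutant) kidneys, while each gene overlapped. The summed level was 2656, 2972 and 3030 CPM in wild type (single mutant) libraries, against 3654, 3076 and 3099 CPM in Control libraries. None of 23 tested members separated the groups, 19 had a log2 fold change below 0, and the median was -0.24. Aqp2, the vasopressin-regulated water channel, had 231, 376 and 238 CPM in wild type (single mutant) kidneys, against 594, 337 and 452 CPM in Control kidneys. The lowest Control library was below the highest wild type (single mutant) one (log2 fold change of -0.71 ± 0.27 SE). Without Control library 2, 7 of the 23 members were lower without overlap (30.4%, beside 9.71% of all tested genes), without wild type (single mutant) library 3 there were 4 (17.4%, beside 12.1%) and without Control library 3 there were 3 (13%, beside 11.1%). Intercalated cell genes had a median of 0.01, with 0 of 24 separated.

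Injury genes overlapped between the groups when all 6 libraries were used. None of 41 tested tubular injury genes separated wild type (single mutant) from Control, 32 were below 0, and the median was -0.32. Without wild type (single mutant) library 3, 10 were lower without overlap (24.4%, beside 12.1% of all tested genes), without Control library 2 there were 9 (22%, beside 9.71%), without Control library 3 there were 7 (17.1%, beside 11.1%), and library totals alone gave 2. Lcn2, a secreted lipocalin released by injured tubules, had 2.61, 3.08 and 4.24 CPM in wild type (single mutant) kidneys, against 3.35, 2.21 and 2.13 CPM in Control kidneys (log2 fold change of 0.37 ± 0.29 SE). Havcr1, the injury receptor KIM-1, had 5.03, 3.08 and 2.29 CPM in wild type (single mutant) kidneys, against 2.77, 1.98 and 3.16 CPM in Control kidneys (log2 fold change of 0.40 ± 0.34 SE). Among matrix genes Lum and Tgfb3 were lower and Loxl2 higher without overlap, of 45 tested. Without wild type (single mutant) library 3 or Control library 2, 8 were lower (12.1% or 9.71% of all tested genes), and without Control library 3, 10 were higher (10.8% of all). Of 32 tested macrophage and dendritic cell genes 29 were below 0 with a median of -0.57, and 0 were lower without overlap. Without Control library 3, 20 of the 32 were lower without overlap (62.5%, beside 11.1% of all tested genes), without wild type (single mutant) library 3 there were 9 of 33 (27.3%, beside 12.1%) and without Control library 2 there were 4 of 33 (12.1%, beside 9.71%). Csf1r, the receptor for colony-stimulating factor 1, was higher by a narrow gap that RLE factors and the fit of all 10 libraries closed, with 63.7, 74.7 and 66.3 CPM in wild type (single mutant) kidneys, against 61.6, 51.7 and 63.4 CPM in Control kidneys.

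Energy metabolism was close to level. Of 52 nuclear genes of oxidative phosphorylation 1 was lower without overlap (Sdha) and 0 higher, with a median of 0.02, and without wild type (single mutant) library 2, 10 were lower (9.01% of all tested genes were). Of 41 fatty acid oxidation genes 2 were higher (Acox2 and Ppargc1a) and 1 lower (Hadhb), with a median of 0.03. Acox2, a peroxisomal oxidase of branched chains and bile acid intermediates, had 112, 108 and 183 CPM in wild type (single mutant) kidneys, against 67.8, 75.2 and 93.9 CPM in Control kidneys. Autophagy (2 of 38 higher), lysosome (1 of 34 lower) and cholesterol synthesis (1 higher and 1 lower of 31) had shares near those of all tested genes. Of the autophagy genes 10 were higher without wild type (single mutant) library 3 or Control library 3, beside 12.5% or 10.8% of all.

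Genes that mark strain or sex overlapped for the most part. Nnt, a mitochondrial transhydrogenase that carries a deletion in the C57BL/6J strain, had 317, 279 and 216 CPM in wild type (single mutant) kidneys, against 307, 325 and 251 CPM in Control kidneys (log2 fold change of -0.12 ± 0.17 SE). It was present in all 6 libraries, and the groups overlapped. Of 19 tested genes known to differ between inbred strains, Ly6c1 and Ncf1 were lower without overlap (10.5%, against 3.55% of all), and without Control library 3 or library 2 the count was 6 or 4 of 21 (11.1% or 9.71% of all). Of 9 tested sex chromosome genes 2 were higher without overlap (22.2%, against 4.01% of all), both Y-linked, and 0 were lower. Eif2s3y, a Y-linked translation factor gene, had 67.8, 61.8 and 54.1 CPM in wild type (single mutant) kidneys, against 49.7, 50.1 and 41.7 CPM in Control kidneys (log2 fold change of 0.38 ± 0.12 SE), without overlap. Uty, a Y-linked histone demethylase gene, had 25.9, 24.4 and 25.2 CPM in wild type (single mutant) kidneys, against 21.3, 22.2 and 23.7 CPM in Control kidneys (log2 fold change of 0.17 ± 0.09 SE), with a narrow gap. Of 5 tested members of the mouse Apol list, Apold1 was lower without overlap. Apold1, an early response gene of endothelium, had 1.69, 2.1 and 0.817 CPM in wild type (single mutant) kidneys, against 4.99, 2.41 and 5.18 CPM in Control kidneys (log2 fold change of -1.45 ± 0.44 SE).

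**Figure D5:**
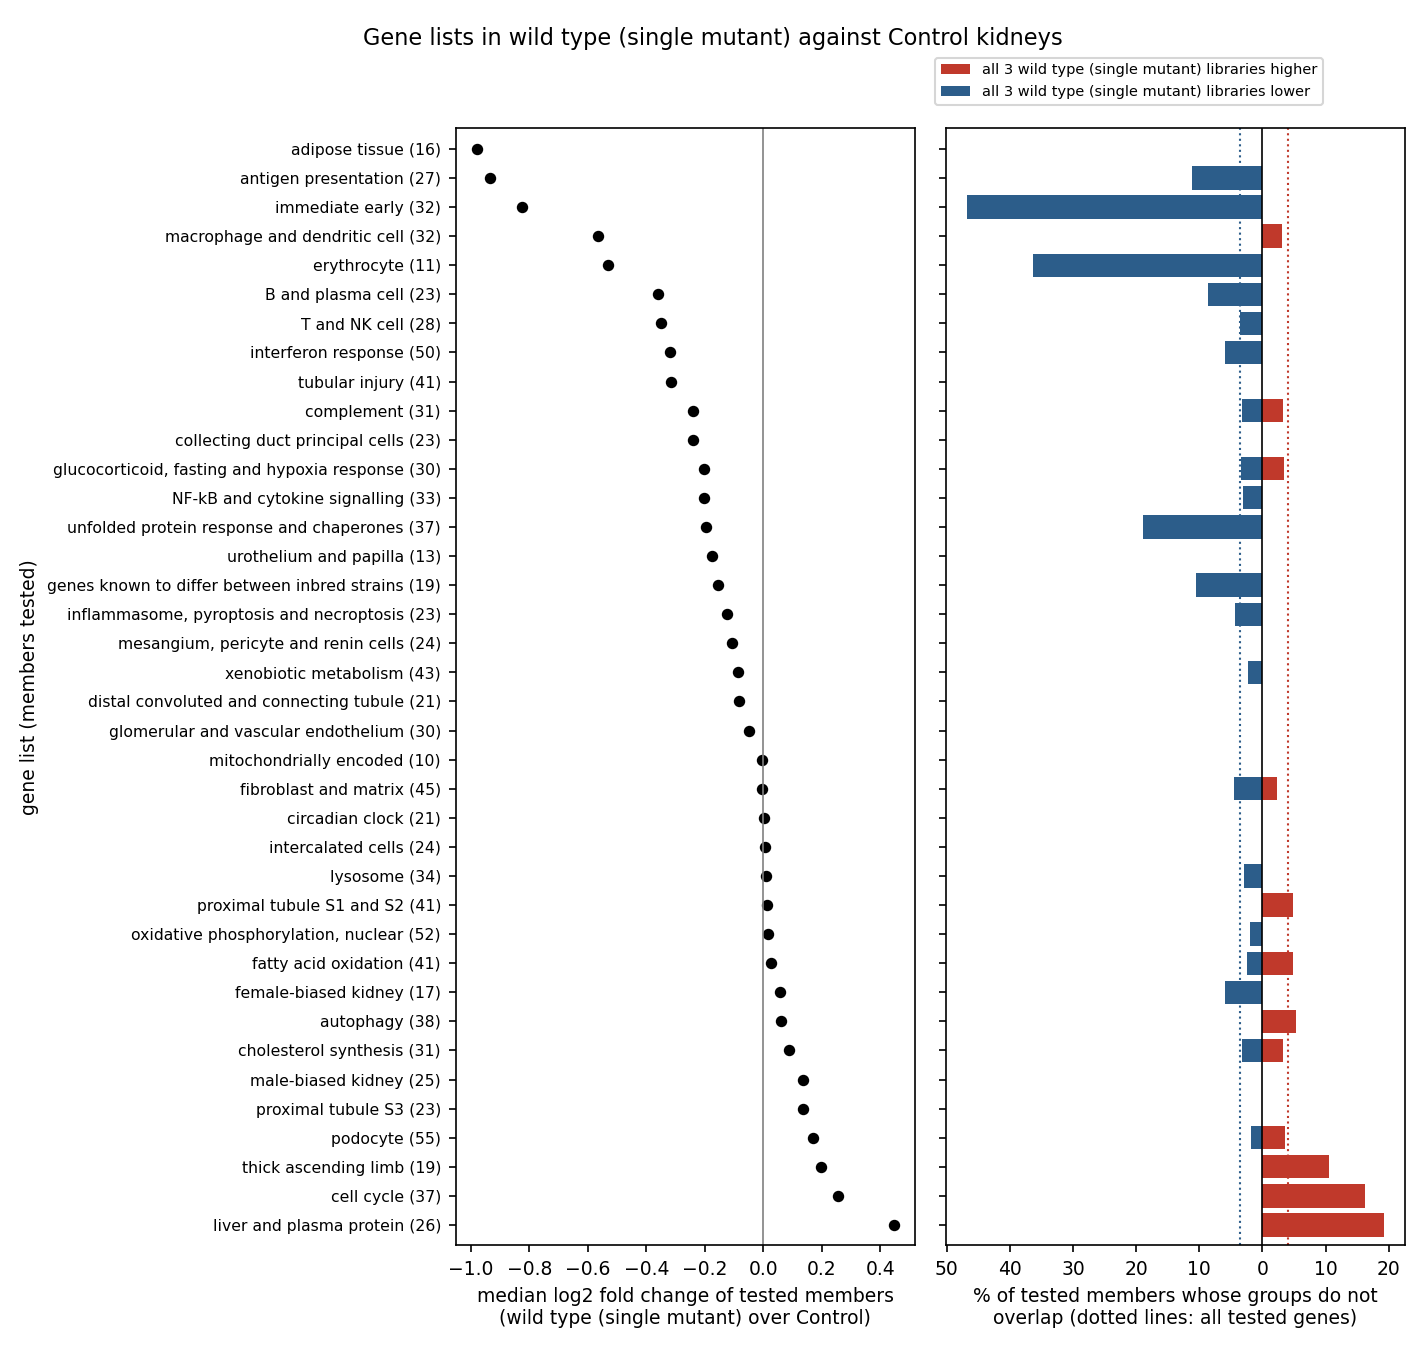
Gene lists with at least 10 tested members (number in brackets), ordered by the median log2 fold change of wild type (single mutant) over Control (left panel). The right panel gives the percent of tested members for which all wild type (single mutant) libraries were higher (red, to the right) or lower (blue, to the left), and dotted lines mark the share of all tested genes, 4.01% and 3.55%. The bars for immediate early genes (46.9%) and erythrocyte genes (36.4%) reach farthest to the left, and those for liver and plasma protein genes (19.2%) and cell cycle genes (16.2%) farthest to the right.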

How the data were processed

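Whole kidney RNA was measured in 10 libraries, of which the 3 wild type (single mutant) and 3 Control ones were compared. For each library the authors deposited whole-number read counts by gene, not normalized. The build GRCm38 and the tools HTSeq 0.6.1, STAR 2.4.1d, Trim Galore, FastQC and CASAVA 1.8.2 are named per the submitters' processing notes. No settings, annotation release or strand mode is given there, so reads of antisense or overlapping genes cannot be told apart, and the labels name 2 different RNA kits. Symbols and coordinates came from GENCODE M21, where 46005 of 46517 gene IDs matched and 118 share a symbol.

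Counts were TMM-scaled, filtered (filterByExpr, minimum count of 10) and fitted with edgeR 4.0.16 (R 4.3.3) on the 6 libraries (common coefficient of variation 0.251). A gene was called at a Benjamini-Hochberg adjusted p under 0.05. Standard errors (SE) come from the fold change and its F statistic. Levels of the risk allele libraries were put on the same CPM scale. Alternatives were DESeq2 1.42.0 (26 genes with no adjusted p), limma voom 3.58.1, a fit of all 10 libraries, RLE factors, library totals alone, no filter, each library left out and NA_-titled libraries alone. The fit was tested on simulated data. Tables and figures used Python 3.11.15, pandas 2.3.3 and matplotlib 3.10.9.

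A count of 3, taken as a floor for reading low levels, is 0.0957 to 0.0973 CPM in wild type (single mutant) and 0.0981 to 0.109 CPM in Control libraries. It did not replace counts of 0 in the fits or the levels. Intervals and floors cover counting error only. The comparison and its 43 gene lists (1067 genes tested) were chosen with earlier results of these data known. Genes named by rule were the 3 lowest p in each direction and a set of kidney marker genes, and all others were picked after their values were seen. Some of the marker genes are not reported here, though list counts include them. Replicates were numbered in accession order, which pairs no libraries.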

Additional observations from a re-analysis of the deposited data

How the results depend on the processing

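No gene passed edgeR's test under TMM or RLE factors, library totals alone, no filter on low counts, the fit of all 10 libraries, limma voom (in its own test) or the NA_-titled libraries alone. DESeq2 called 18 genes, 3 higher and 15 lower, and all 18 separated the groups. Leaving out each library in turn gave 0 to 2 called genes (0 to 2 higher, 0 to 0 lower, 0 to 2 separated): without wild type (single mutant) library 3 these were Ttr (log2 fold change 7.26) and Rpsa-ps10 (4.54), and without Control library 1 it was Rps3a3 (5.15).

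Genes at an unadjusted p under 0.05 numbered 899 with no filter, which tests more genes, and 229 to 1115 with a library left out: 229 without wild type (single mutant) library 1, 301 without Control library 1, 869 without Control library 3 and 1115 without wild type (single mutant) library 3. Separated genes numbered 987 higher and 999 lower with no filter, 918 to 2063 higher and 900 to 2001 lower with a library left out, and 5527 higher and 5621 lower among the NA_-titled libraries, as fewer libraries separate more genes by their construction.

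Of 58 named genes that were refitted, 52 kept their direction whichever library was left out. The other 6 had log2 fold changes from -0.0053 to 0.65 (Podxl), -0.19 to 0.64 (Synpo), -0.10 to 0.92 (Wt1), -0.083 to 0.22 (Xist), -0.31 to 0.19 (Slc12a3) and -0.25 to 0.016 (Nnt). Among the NA_-titled libraries alone, with 1 wild type (single mutant) library assumed to vary like the Controls, the direction turned for Havcr1 (-0.056), Ddx3y (-0.0038), Slc34a1 (-0.068), Slc12a3 (0.062) and Rpsa-ps10 (-0.29). The cause was not tested. DESeq2 brought 14 of the 58 past its threshold. Depth limits genes near the floor of 3 counts, such as Iglv2.

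No paired analysis was made, because the labels give the groups no shared replicate numbers. The library titles, NA_ or other, occur in both groups but were not used as a block in any fit. Apart from the fit of NA_-titled libraries alone, differences that go with the title are part of the spread behind each SE and p-value.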
